A study of Homo sapiens with 30 samples.

Results

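The transcripts of the mitochondrial genome were taken as all genes whose symbol begins with MT- in the count tables. The tables held 25 such genes among 18460 genes: 13 mRNAs, 2 rRNAs and 10 tRNAs. The annotation places 37 genes on the mitochondrial chromosome, and the 12 others, which are tRNAs, were not used here. The 25 transcripts were followed in A549 cells, a human lung carcinoma line of alveolar epithelial type, and in EA.hy926 cells, a human endothelial line made by fusing umbilical vein endothelial cells with an A549 clone. Both lines shared 1 membrane insert at the air-liquid interface, with the A549 cells on the apical side, where the aerosol lands, and the EA.hy926 cells below the membrane. The inserts were exposed for 4 h to clean air (CA), to fresh soot particles (SP), or to soot that was aged together with β-pinene (SOAβPIN-SP) or naphthalene (SOANAP-SP), precursors that form secondary organic aerosol. For each line there were 4 libraries of CA, SOAβPIN-SP and SOANAP-SP and 3 of SP, 30 libraries in all, each a poly-A library of bulk RNA. The labels give 1 mg/ml for soot and 4 mg/ml for each precursor, but the study's methods use another volume, so the doses are not interpreted here. At the dilution used, the study estimated the mass deposited on the cells as highest for SOANAP-SP and lowest for SP. The kind of aerosol and the deposited mass therefore cannot be told apart. The labels number the exposure experiments. For each line, experiments 53, 38 and 42 each gave 1 CA library and 1 library of SP, SOAβPIN-SP or SOANAP-SP, in that order. The study describes a clean-air sector in each exposure system. Other aerosol experiments can thus have had CA inserts without a library here. No experiment gave libraries of more than 1 kind of aerosol, so a difference between aerosols and a difference between experiments cannot be told apart. Most libraries of each aerosol also share no experiment with a CA library, so this limit reaches the comparisons with CA too. Each line is 1 established cell line, and the replicates are separate exposures of it, so p-values measure the spread between exposures. The study corrected its samples for sequencing batch. That batch is not in the labels and entered no fit here, so the spread and the group differences can hold it.

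The human mitochondrial genome is a small circle that is transcribed from both strands into long RNAs. The heavy-strand RNA carries both rRNAs, most tRNAs and all mRNAs but MT-ND6, which is read from the light strand. tRNAs sit between the other genes and are cut out by RNase P and by the 3′ tRNA nuclease ELAC2, which frees the rRNAs and mRNAs on either side. The rRNAs build the mitochondrial ribosome, and the mRNAs encode core subunits of respiratory complexes I, III and IV and of the ATP synthase, complex V. Most of these mRNAs carry short poly-A tails, the rRNAs carry very short ones, and mature tRNAs carry none, so a poly-A library does not sample the classes equally.

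The sequences below are the 4 tRNA genes that the comparisons turn on, shown because a counted read had to lie whole within them. They were read from chrM of GRCh38, whose length is 16569 bases, and are written 5′ to 3′ on the + strand, in DNA letters, with the anticodon in capitals. The anticodon is the base triplet that pairs with the codon.
MT-TF, phenylalanine, chrM:577-647: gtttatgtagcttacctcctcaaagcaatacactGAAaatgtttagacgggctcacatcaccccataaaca
MT-TV, valine, chrM:1602-1670: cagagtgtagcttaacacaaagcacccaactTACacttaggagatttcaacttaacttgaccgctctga
MT-TL1, leucine, chrM:3230-3304: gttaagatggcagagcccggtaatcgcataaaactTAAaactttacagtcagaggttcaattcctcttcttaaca
MT-TM, methionine, chrM:4402-4469: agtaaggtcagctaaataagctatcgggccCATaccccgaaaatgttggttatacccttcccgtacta
The annotation leaves 0 bases between MT-TF and MT-RNR1 (12S rRNA, chrM:648-1601), between MT-RNR1 and MT-TV, between MT-TV and MT-RNR2 (16S rRNA, chrM:1671-3229), and between MT-RNR2 and MT-TL1. MT-TL1 is followed after 2 bases by MT-ND1. MT-TM directly precedes MT-ND2, and the junction at chrM:4455-4484, with the last 15 bases of the tRNA gene in capitals, shows that no spacer parts them.
MT-TM to MT-ND2: ACCCTTCCCGTACTAattaatcccctggcc
A read that crosses such a junction lies in 2 genes and was counted for neither under the counting mode the study used. The tRNA genes are 68 to 75 bases long, so only reads no longer than that could be counted for them. MT-ATP8 and MT-ATP6 overlap by 46 bases and MT-ND4L and MT-ND4 by 7 bases, and reads within an overlap can be assigned to neither. Whether counting used the strand is not given in the sources used here, so reads of MT-ND6 and of the strand opposite to it cannot be told apart.

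The libraries held 7317041 to 16610686 counts in genes. The epithelial markers summed to 13497 to 19065 CPM (counts scaled to equal library totals) in A549 and 1538 to 2118 CPM in EA.hy926 libraries. In EA.hy926 libraries CDH1 was at 0 in 14 of 15, and EPCAM, KRT19 and CLDN4 were at no more than 0.600, 0.542 and 2.09 CPM. The keratins KRT7, KRT8 and KRT18 went the other way there, at 630 to 989, 469 to 692 and 376 to 524 CPM. With them the epithelial sum of this line lay above its endothelial sum, given next. The endothelial markers summed to 4.35 to 15.1 CPM in A549 and 1036 to 1385 CPM in EA.hy926 libraries, where VWF, a defining endothelial gene, was at no more than 2.47 CPM. SFTPC, the surfactant gene of alveolar type II cells, was at 0 in 9 of 15 A549 libraries.

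Mitochondrial transcripts took a larger share of the A549 than of the EA.hy926 libraries. Their share of all gene counts in A549 cells was 11.2, 10.7, 15.3 and 11.6% in CA, 9.75, 11.6 and 11.3% in SP, 10.1, 11.7, 9.87 and 13.1% in SOAβPIN-SP and 13.9, 13.1, 17.4 and 17% in SOANAP-SP. The SOANAP-SP libraries were all above those of SP and SOAβPIN-SP and overlapped those of CA, where replicate 3 stood above the other 3. In experiment 42, the only one with both a CA and a SOANAP-SP library, the share was lower with SOANAP-SP (13.9% against 15.3%). In EA.hy926 cells the share was 2.58, 4.64, 4.75 and 2.59% in CA, 3.76, 3.09 and 3.85% in SP, 3.66, 2.87, 4.00 and 4.02% in SOAβPIN-SP and 3.29, 3.20, 3.05 and 4.74% in SOANAP-SP. Here the CA libraries fell into a high and a low pair that spanned the values of every aerosol. At these depths the 95% Wilson interval of a share was narrow, 2.57 to 2.59% around the lowest, and it covers counting error only. In bulk RNA, a higher share can come from more mitochondrial RNA or from less of other RNA, and these cannot be told apart.

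**Figure D1:**
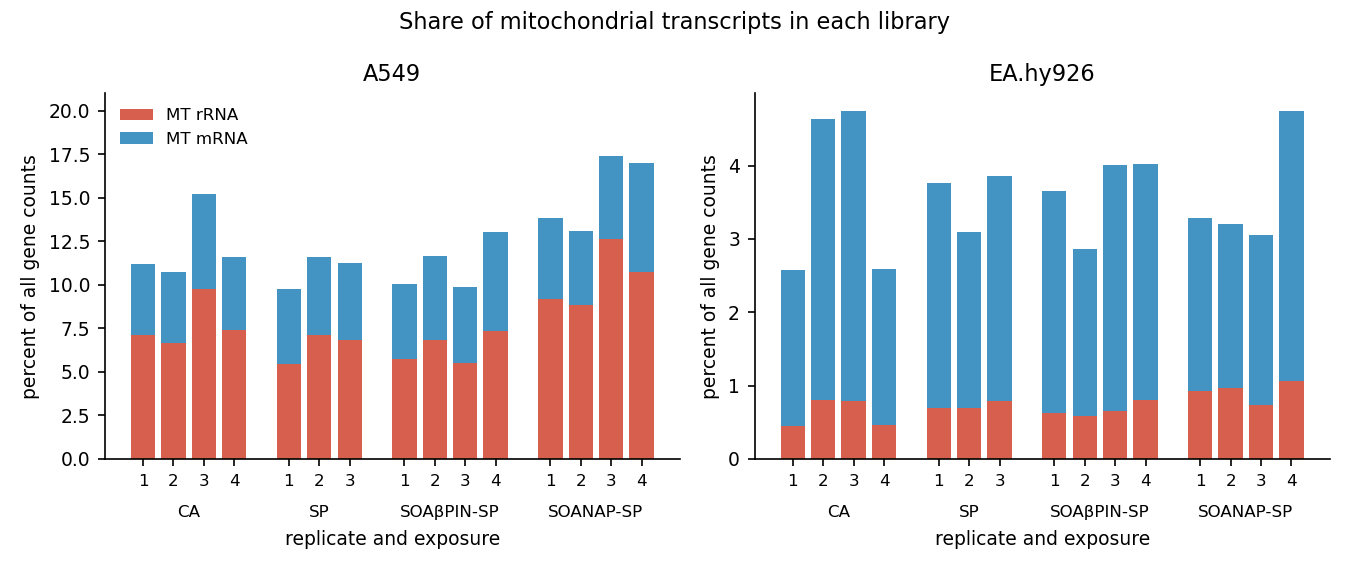
Share of all gene counts taken by MT rRNAs (red) and MT mRNAs (blue) in each library, in percent, with replicate numbers by exposure and separate scales for A549 and EA.hy926. In A549, SOANAP-SP libraries reached 13.1 to 17.4%, above all SP and SOAβPIN-SP libraries; in EA.hy926 no exposure separated from CA.

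SOANAP-SP differed from CA by a 0.34 log2 share in A549 cells (two-sided exact permutation p = 0.0857, n = 4 and 4), which did not pass the test. Against SOAβPIN-SP the log2 difference was 0.46 with an exact permutation p of 0.0286, the smallest that 4 against 4 libraries can give, and against SP it was 0.49 with p = 0.0571, the smallest for 4 against 3. A comparison with SP therefore cannot pass 0.05 in this test. 66 such comparisons of 11 measures were made against CA and as many between aerosols, and after Benjamini-Hochberg adjustment none passed: the smallest adjusted p was 0.126 against CA and 0.198 between aerosols. The differences of shares and ratios are therefore given as values that overlap or do not.

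Among single genes, the counts of the 4 tested mitochondrial tRNAs and of the 12S rRNA rose in A549 cells exposed to SOANAP-SP. 8 of 19 members tested were higher than in CA and 0 lower, beside 16.6% of all 11775 tested genes higher and 19.1% lower. A member was tested where it had at least 30 counts in at least 3 libraries of the line, and called where the Benjamini-Hochberg adjusted p of edgeR's quasi-likelihood test was at most 0.05. All 4 tested tRNAs, 1 of 2 rRNAs and 3 of 13 mRNAs rose, and the 4 tRNAs and the rRNA also changed by at least 0.5 on the log2 scale. Normalized read counts below are counts scaled to the mean library of the line with TMM factors (trimmed mean of M-values, which balance libraries of unlike composition).

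MT-TM, the tRNA for methionine, which reads the start codon of every mitochondrial mRNA, was at 238, 258, 409 and 363 normalized reads in CA and 1442, 1610.4, 2622 and 2142 in SOANAP-SP. The groups did not overlap, and the lowest SOANAP-SP library held over 3 times the reads of the highest CA library. This was the largest change among the 19 tested members (log2 fold change 2.62, SE 0.36, adjusted p = 0.000196). MT-TL1, the tRNA for the leucine codons UUA and UUG, was at 34, 18.9, 35.1 and 59.4 in CA and 130.4, 144, 193 and 178 in SOANAP-SP (log2 fold change 2.11, SE 0.33, adjusted p = 0.00023). MT-TV, the tRNA for valine, which is also built into the human mitochondrial ribosome, was at 37, 22.7, 46.8 and 55.9 in CA and 127, 103, 182 and 160.3 in SOANAP-SP (log2 fold change 1.81, SE 0.33, adjusted p = 0.000672). All 4 exposed libraries of both tRNAs were above all 4 CA libraries. MT-TF, the tRNA for phenylalanine and the first gene of the heavy-strand RNA, was at 28, 30.3, 32.7 and 55 in CA and 73.2, 80.7, 89.3 and 120.2 in SOANAP-SP (log2 fold change 1.30, SE 0.33, adjusted p = 0.00608). Its groups did not overlap either, with replicate 4 the highest in each. The 4 calls held in every alternative processing in which these tRNAs were tested.

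The other 6 tRNAs in the tables were too low to be tested in the main comparison, with 0 to 39 counts in the A549 libraries. MT-TY, the light-strand tRNA for tyrosine, had 2, 2, 3 and 5 counts in CA and 29, 25, 13 and 39 in SOANAP-SP. MT-TP, the light-strand tRNA for proline, had 2, 3, 11 and 7 counts in CA and 24, 26, 19 and 35 in SOANAP-SP. MT-TS2, a tRNA for serine, had 1, 1, 1 and 2 counts in CA and 9, 14, 5 and 22 in SOANAP-SP. In each of these 3 the groups did not overlap, and without the filter all 3 were called, with log2 fold changes of 3.07 for MT-TY, 2.13 for MT-TP and 3.17 for MT-TS2. These 3 were picked after the values were seen, and with 1 to 11 counts in CA the fold changes rest on a few reads. The share of all genes called without the filter is not given here, so the values are a description. MT-TC, MT-TH and MT-TL2 had at most 9 counts in any A549 library.

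**Figure D2:**
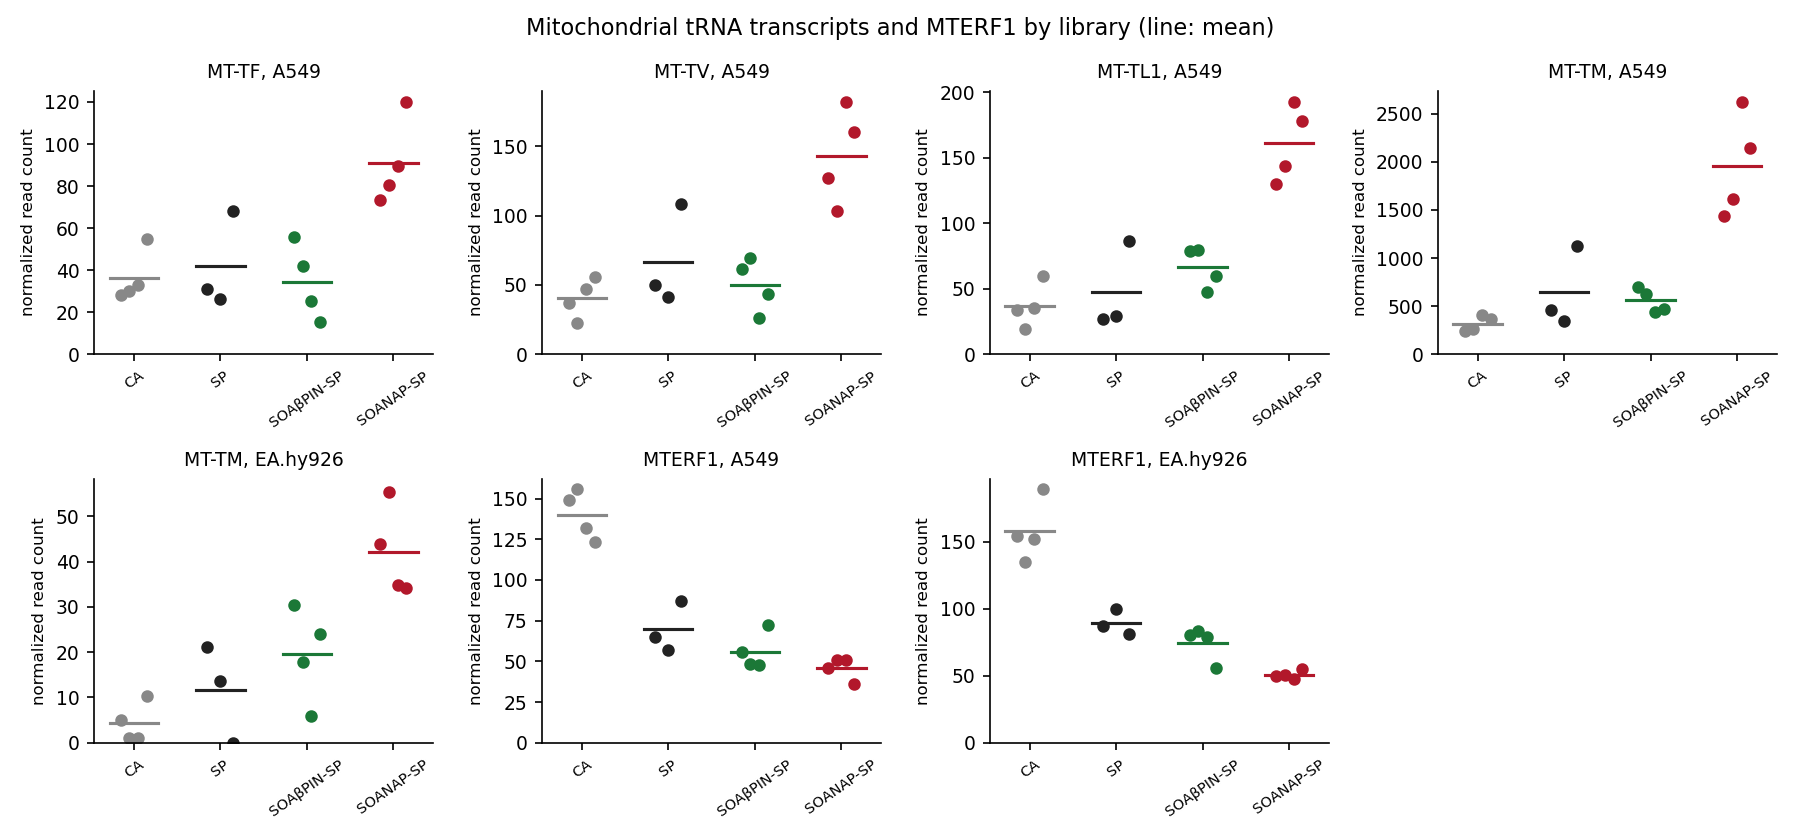
Normalized read count (count scaled by TMM) of 4 mitochondrial tRNAs in A549, of MT-TM in EA.hy926, and of the nuclear gene MTERF1 in both lines; points are libraries and lines are group means. The SOANAP-SP points of each tRNA lie above all CA points, and those of MTERF1 lie below them.

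MT-RNR1, the 12S rRNA of the small ribosomal subunit, was at 233739.6, 211226, 304805 and 233541 normalized reads in CA and 385527, 365879, 434379.9 and 438112 in SOANAP-SP, with no overlap (log2 fold change 0.72, SE 0.14, adjusted p = 0.000677). MT-RNR2, the 16S rRNA of the large subunit, was at 550892, 503204, 796648 and 579702 in CA and 662156, 636502, 1117827 and 834039 in SOANAP-SP, and did not pass (log2 fold change 0.42, SE 0.18, adjusted p = 0.0787). CA replicate 3, with the most MT-RNR2 of the CA libraries, overlapped the exposed range, and without it MT-RNR2 was among 13 members called higher, in place of 8. Of the mRNAs, MT-CO3 and MT-CO2, which encode subunits of cytochrome c oxidase, and MT-ND3, a complex I subunit, were called with small changes of 0.35 (adjusted p = 0.0123), 0.35 (adjusted p = 0.0297) and 0.28 (adjusted p = 0.0432) on the log2 scale. MT-CO3 lost its call without SOANAP-SP replicate 4 (0.26, adjusted p = 0.0526). MT-CO2 was not called without SOANAP-SP replicate 4 (adjusted p = 0.121), CA replicate 1 (adjusted p = 0.0887), CA replicate 2 (adjusted p = 0.0521) or CA replicate 4 (adjusted p = 0.0866), each left out in turn. MT-ND3 was not called without SOANAP-SP replicate 4 (adjusted p = 0.166), SOANAP-SP replicate 3 (adjusted p = 0.0619), CA replicate 1 (adjusted p = 0.129), CA replicate 3 (adjusted p = 0.0514) or CA replicate 4 (adjusted p = 0.117). When libraries were scaled by their totals MT-CO2 (0.26, adjusted p = 0.0741) and MT-ND3 (0.18, adjusted p = 0.188) were not called. With only the compared groups fitted the adjusted p was 0.074 for MT-CO2 and 0.0506 for MT-ND3, and under the filter at 30 CPM it was 0.0548 for MT-ND3. The other 10 mRNAs were not called, with log2 fold changes from -0.40 in MT-ND6 to 0.31 in MT-CYB.

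**Figure D3:**
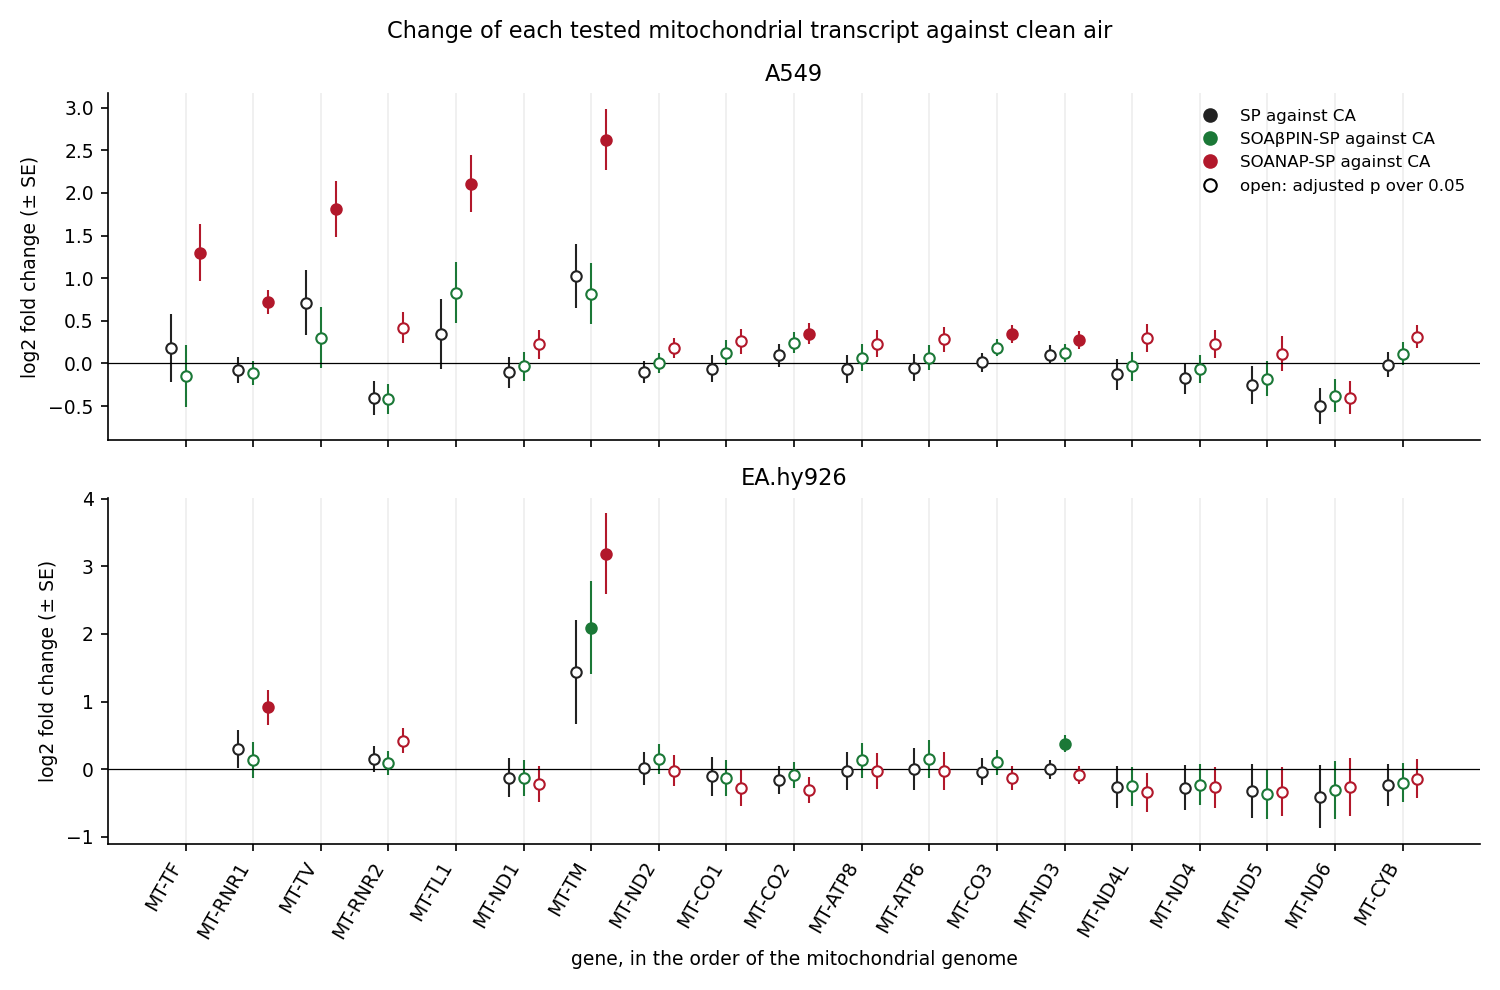
Log2 fold change (± SE) of each tested mitochondrial transcript against CA, in genome order, for SP (black), SOAβPIN-SP (green) and SOANAP-SP (red); filled points have an adjusted p of at most 0.05. In A549 the red points of the 4 tRNAs and MT-RNR1 stand at 0.72 to 2.62, and most mRNAs lie within 0.4 of 0; in EA.hy926 MT-RNR1 and MT-TM stand apart.

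Experiment 42 gave both a CA and a SOANAP-SP library, and the difference within it is a value with no test. In A549 cells it was 1.82 for MT-TM, 1.89 for MT-TL1, 1.44 for MT-TV, 1.16 for MT-TF and 0.34 for MT-RNR1 on the log2 scale, the same direction as over all libraries. MT-RNR2 turned, at -0.27 within the experiment. So did the called mRNAs MT-CO2 and MT-CO3, at -0.06 and -0.09, while MT-ND3 was at 0.10. The other 10 mRNAs were lower in the SOANAP-SP insert, from -1.07 for MT-ND6 to -0.03 for MT-CYB. The share of all mitochondrial transcripts turned as well, at -0.14 within the experiment. The CA library of this experiment is CA replicate 3, the one with the highest mitochondrial mRNA share among the A549 CA libraries.

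No tested member passed the test for SP or SOAβPIN-SP in A549 cells. 0 of 19 were called against CA for SP, beside 4.22% of all genes higher and 5.94% lower, and 2 had an unadjusted p under 0.05. For SOAβPIN-SP 0 of 19 were called, beside 11.0% higher and 14.0% lower, and 3 had an unadjusted p under 0.05. DESeq2 also called 0 in both, and limma-voom 0 for SP and 1 for SOAβPIN-SP. MT-TM was at 458, 350.3 and 1121 normalized reads in SP and 701, 631, 439 and 471 in SOAβPIN-SP. The SOAβPIN-SP libraries were all above the CA libraries, while SP overlapped them and its replicate 3 stood far above the other 2. The log2 fold changes of MT-TM were 1.02 (adjusted p = 0.113) in SP and 0.82 (adjusted p = 0.112) in SOAβPIN-SP. MT-RNR2 was at 387062, 511427 and 478839 in SP and 413745, 486528, 389811 and 529439.9 in SOAβPIN-SP, against 550892, 503204, 796648 and 579702 in CA, so both groups overlapped CA. Its log2 fold changes were -0.40 (adjusted p = 0.214) and -0.42 (adjusted p = 0.101). Leaving out 1 library gave at most 1 call for SP (without SP replicate 2), and for SOAβPIN-SP 2 calls without CA replicate 3 or SP replicate 3 and 1 without CA replicate 4 or SOANAP-SP replicate 3. Experiment 38, with 1 CA and 1 SOAβPIN-SP library of this line, gave 0.87 for MT-TM, and experiment 53, with 1 CA and 1 SP library, gave -0.05.

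Between aerosols, counts of the rRNAs and of tested tRNAs were higher in SOANAP-SP in A549 cells. 6 of 19 members were higher than in SOAβPIN-SP and 0 lower, beside 7.94% and 9.99% of all genes. These were both rRNAs, with log2 differences of 0.84 (adjusted p = 0.000893) for MT-RNR1 and 0.84 (adjusted p = 0.00654) for MT-RNR2, and all 4 tested tRNAs, from 1.28 for MT-TL1 to 1.80 for MT-TM. Leaving out any 1 library kept the number at 6. Against SP, 4 of 19 were higher and 0 lower, beside 5.45% and 7.41% of all genes: MT-RNR1, MT-RNR2, MT-TL1 and MT-TM, with log2 differences of 0.80 (adjusted p = 0.00422), 0.82 (adjusted p = 0.0158), 1.76 (adjusted p = 0.00904) and 1.60 (adjusted p = 0.0199). Without SP replicate 1 only MT-RNR1 was called, and MT-TM was also not called without SP replicate 2 (adjusted p = 0.0683) or SOANAP-SP replicate 3 (adjusted p = 0.0512), nor with only the compared groups fitted (adjusted p = 0.085), while 7 members were called without CA replicate 4. No mRNA passed in either comparison, with log2 differences from -0.02 to 0.33 against SOAβPIN-SP and from 0.10 to 0.42 against SP. SOAβPIN-SP against SP gave 0 of 19, beside 0% of all genes higher and 0.0679% lower, with 0 at an unadjusted p under 0.05 and 0 by DESeq2 and limma-voom. These comparisons share the SOANAP-SP libraries with the one against CA, so they are not separate evidence for it. The compared aerosols also differed in experiment and in estimated deposited mass, which cannot be told apart from their kind.

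In EA.hy926 cells exposed to SOANAP-SP, MT-RNR1 rose against CA, and MT-TM was called higher as well. These were 2 of 16 tested members, with 0 lower, beside 14.3% of all 10709 tested genes higher and 15.5% lower. MT-RNR1 was at 13339.5, 32636, 31652 and 17517 normalized reads in CA and 46193, 49388, 32011 and 51633 in SOANAP-SP (log2 fold change 0.91, SE 0.26, adjusted p = 0.0199). The lowest SOANAP-SP library lay just below the highest CA library. MT-RNR1 was not called without CA replicate 4 (0.78, adjusted p = 0.0601) or SOANAP-SP replicate 2 (0.85, adjusted p = 0.0507), nor where only the compared groups were fitted (0.91, adjusted p = 0.0763). MT-TM had 6, 1, 1 and 10 counts in CA and 44, 60, 39 and 31 in SOANAP-SP, so the groups did not overlap. It passed the filter on low counts only through the SOANAP-SP libraries, where it is high, and so had to differ: its log2 fold change 3.18, SE 0.60, adjusted p = 0.000689 is a description. In SP it had 24, 19 and 0 counts and in SOAβPIN-SP 27, 16, 5 and 23, between CA and SOANAP-SP for most libraries. MT-TL1 was untested at 4, 1, 1 and 5 counts in CA and 6, 10, 15 and 6 in SOANAP-SP, and MT-TF at 3, 1, 2 and 5 and 11, 12, 6 and 7. In both, every SOANAP-SP library was above every CA library, and without the filter MT-TL1 was called (log2 fold change 1.65). These values rest on a few reads and were picked after they were seen, so they are a description. The other 7 tRNAs had at most 5 counts in any EA.hy926 library of any exposure.

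None of the 13 mRNAs passed against CA for SOANAP-SP in EA.hy926 cells, and all 13 log2 fold changes were below 0, from -0.34 in MT-ND4L to -0.02 in MT-ND2. MT-RNR2 was at 38711, 65159, 65616 and 37049.9 in CA and 67806, 68636, 59472 and 80965 in SOANAP-SP, and was not called, at 0.42 (adjusted p = 0.0938). The mRNAs shared the split among the CA libraries: MT-CYB, the cytochrome b mRNA of complex III, was at 13101, 23316, 25251 and 11634 in CA and 15412, 12483, 13799.6 and 24792 in SOANAP-SP. CA replicates 2 and 3 and SOANAP-SP replicate 4 were high, and the others low. Within experiment 42, MT-RNR1 differed by 0.55 and MT-CYB by -0.71 on the log2 scale, SOANAP-SP minus CA.

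For SOAβPIN-SP in EA.hy926 cells, 2 of 16 members were called higher and 0 lower, beside 11.4% and 12.3% of all genes. MT-ND3 was at 6908, 10209.9, 7603 and 8096 normalized reads in CA and 11631, 8499, 11381 and 11191 in SOAβPIN-SP (log2 fold change 0.38, SE 0.13, adjusted p = 0.0439), with overlapping groups. The other was MT-TM, with 27, 16, 5 and 23 counts in SOAβPIN-SP and 6, 1, 1 and 10 in CA (log2 fold change 2.09, adjusted p = 0.0358). It passed the filter only through the SOANAP-SP libraries and rests on a few reads, so its value is a description. Neither call was stable. Without CA replicate 1, CA replicate 3, SOAβPIN-SP replicate 1 or SOAβPIN-SP replicate 4 both were lost, and the number fell to 1 without CA replicate 2, CA replicate 4, SOAβPIN-SP replicate 2, SOAβPIN-SP replicate 3, SOANAP-SP replicates 1, 2 or 3, or SP replicate 3. For SP, 0 of 16 were called, beside 9.54% higher and 9.01% lower, with 0 at an unadjusted p under 0.05 and 0 by DESeq2 and limma-voom; 1 was called without SP replicate 3. Between aerosols 0 of 16 were called in EA.hy926 cells. The background was 0.383% higher and 0.486% lower for SOANAP-SP against SOAβPIN-SP, 0.560% and 0.551% against SP, and 0% each for SOAβPIN-SP against SP. An unadjusted p under 0.05 was found for 3, 1 and 1 members in these comparisons, and DESeq2 called 1, 0 and 0.

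Ratios between the classes do not depend on how much other RNA a library holds. In A549 cells the count of both rRNAs per mRNA count was 1.75, 1.65, 1.78 and 1.77 in CA, 1.27, 1.60 and 1.55 in SP, 1.34, 1.42, 1.27 and 1.28 in SOAβPIN-SP and 1.95, 2.09, 2.65 and 1.70 in SOANAP-SP. Every SP and SOAβPIN-SP library was below every CA library (log2 difference -0.24, two-sided exact permutation p = 0.0571 for SP, the smallest possible; log2 difference -0.39, two-sided exact permutation p = 0.0286 for SOAβPIN-SP, the smallest possible), while SOANAP-SP overlapped CA. In EA.hy926 cells the ratio was 0.208, 0.210, 0.199 and 0.218 in CA, 0.225, 0.288 and 0.259 in SP, 0.208, 0.256, 0.196 and 0.248 in SOAβPIN-SP and 0.390, 0.435, 0.321 and 0.289 in SOANAP-SP. Here SP and SOANAP-SP lay wholly above CA (log2 difference 0.76, two-sided exact permutation p = 0.0286 for SOANAP-SP, adjusted p = 0.126). The high and low CA libraries of this line, which differed in the share of all mitochondrial RNA, had ratios close to each other.

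The tRNA count, per 1000 mRNA counts, in A549 cells was 0.771, 0.773, 0.876 and 1.21 in CA and 3.42, 4.15, 5.36 and 3.62 in SOANAP-SP, with no overlap (log2 difference 2.19, two-sided exact permutation p = 0.0286). SP stood at 1.32, 0.953 and 3.01 and SOAβPIN-SP at 2.06, 1.62, 1.17 and 0.990, and both overlapped CA. In EA.hy926 cells it was 0.0479, 0.0124, 0.00872 and 0.0944 in CA and 0.226, 0.283, 0.213 and 0.111 in SOANAP-SP, also without overlap (log2 difference 2.90, two-sided exact permutation p = 0.0286, adjusted p = 0.126). These ratios rest on 14, 5, 4 and 23 tRNA counts in CA and 66, 83, 68 and 46 in SOANAP-SP. Most of the SOANAP-SP counts are those of MT-TM, so the difference is a description and not separate support. The ratio of MT-RNR1 to MT-RNR2 counts in A549 cells was 0.424, 0.420, 0.383 and 0.403 in CA, 0.451, 0.512 and 0.551 in SP, 0.458, 0.520, 0.536 and 0.488 in SOAβPIN-SP and 0.582, 0.575, 0.389 and 0.525 in SOANAP-SP. SP and SOAβPIN-SP lay above CA, and SOANAP-SP did so in all libraries but replicate 3. In EA.hy926 cells the ratio was 0.345, 0.501, 0.482 and 0.473 in CA and 0.681, 0.720, 0.538 and 0.638 in SOANAP-SP, with no overlap (log2 difference 0.52, two-sided exact permutation p = 0.0286).

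Counts of MT-ND6 relative to the other mRNAs lay below CA in A549 cells under every aerosol. It encodes a complex I subunit and is the only mRNA of the light strand. Whether counting used the strand is not given, so the counts of MT-ND6 can hold reads of the opposite strand. How well the poly-A libraries captured MT-ND6 was not tested. Its counts per 100 counts of the 12 other mRNAs were 1.30, 1.26, 1.51 and 1.45 in CA, 1.17, 0.952 and 0.982 in SP, 1.06, 0.906, 0.965 and 1.12 in SOAβPIN-SP and 0.826, 0.854, 0.861 and 0.938 in SOANAP-SP. Each aerosol lay wholly below CA, with log2 differences of -0.42 for SP, -0.45 for SOAβPIN-SP and -0.66 for SOANAP-SP; the exact permutation p was the smallest possible in each, 0.0571, 0.0286 and 0.0286. The adjusted p was 0.164 for SP and 0.126 for the other aerosols, so this did not pass the correction. As a gene on its own MT-ND6 was not called, at -0.50 (adjusted p = 0.16), -0.38 (adjusted p = 0.172) and -0.40 (adjusted p = 0.119). In EA.hy926 cells the ratio was 0.628, 0.850, 0.905 and 0.543 in CA and 0.596, 0.582, 0.589 and 0.972 in SOANAP-SP, and every aerosol overlapped CA. There the high libraries were again CA replicates 2 and 3 and SOANAP-SP replicate 4.

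**Figure D4:**
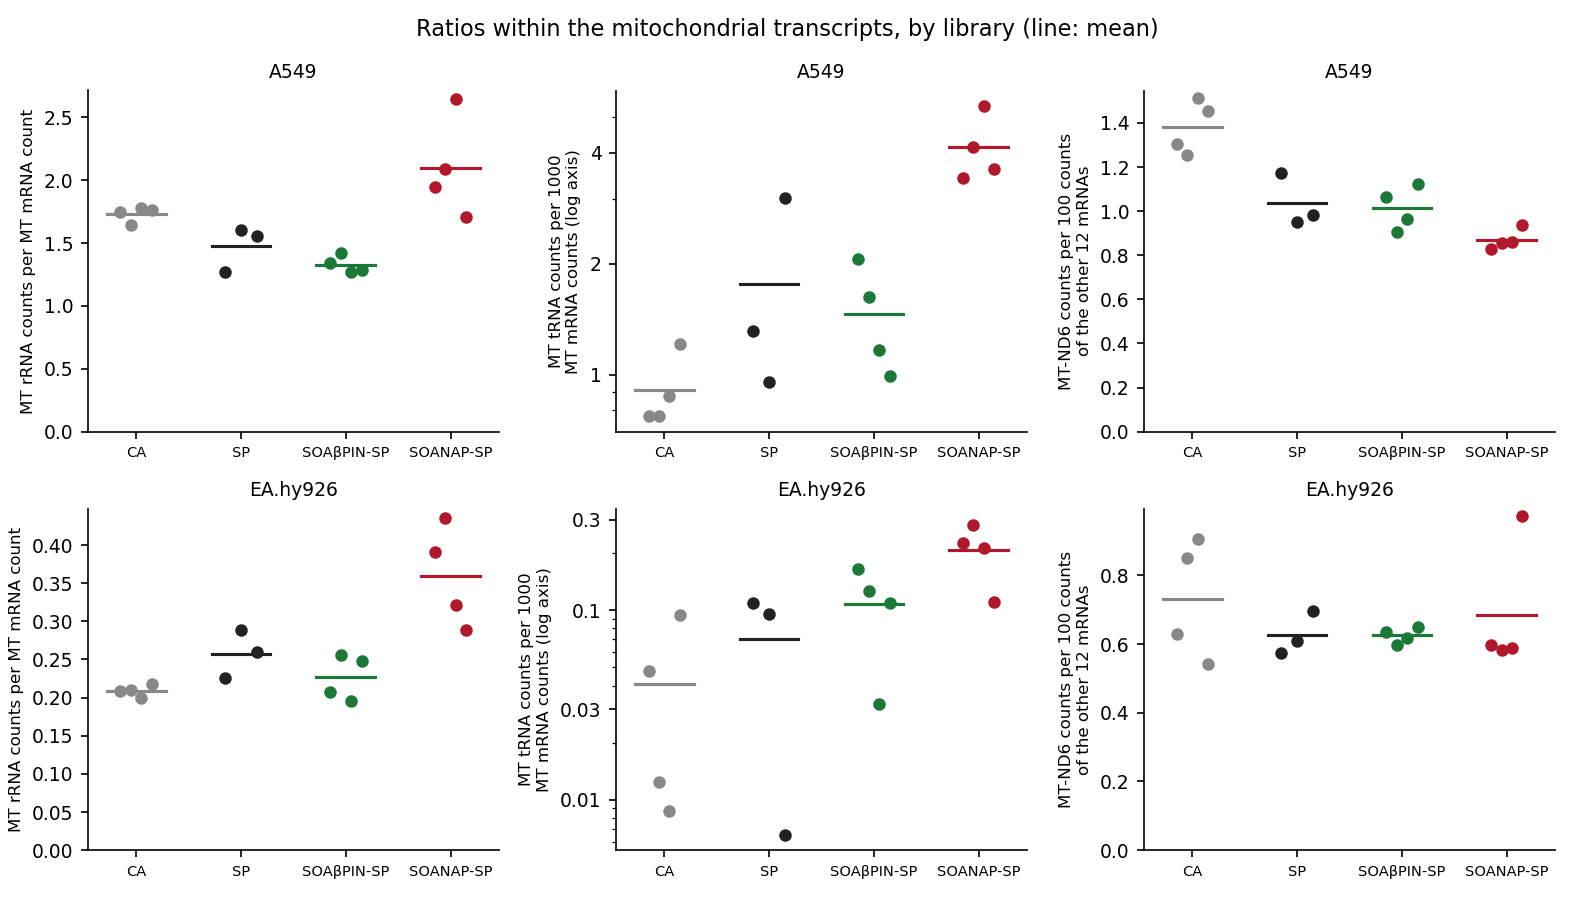
Ratios within the mitochondrial counts of each library (points, with group means as lines) in A549 (top) and EA.hy926 (bottom): rRNA per mRNA count, tRNA per 1000 mRNA counts on a log axis, and MT-ND6 per 100 counts of the other mRNAs. In A549 SP and SOAβPIN-SP lie below CA in the rRNA ratio, SOANAP-SP lies above CA in the tRNA ratio (3.42 to 5.36 against 0.771 to 1.21), and all aerosols lie below CA in the MT-ND6 ratio.

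The nuclear RNAs MALAT1 and NEAT1 and the histone mRNAs, which end without a poly-A tail, moved with the exposure in A549 libraries as well. MALAT1 and NEAT1 together took 0.00538, 0.00465, 0.00709 and 0.00831% of the counts in CA, 0.0218, 0.0177 and 0.0192% in SP, 0.0282, 0.0131, 0.0219 and 0.00950% in SOAβPIN-SP and 0.0215, 0.0199, 0.0150 and 0.0192% in SOANAP-SP. All aerosol libraries were above all CA libraries. The histone genes took 0.0155, 0.0166, 0.0148 and 0.0172% in CA and 0.0116, 0.0110, 0.0146 and 0.0117% in SOANAP-SP, and all aerosol libraries were below all CA libraries. In EA.hy926 cells both measures overlapped CA for every aerosol. Their part in the differences of the mitochondrial RNAs was not tested.

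A549 and EA.hy926 cells differed in the class of mitochondrial RNA that they held in CA. 17 of 19 tested members were lower in EA.hy926 than in A549 and 1 was higher, beside 43.9% of 12599 genes lower and 40.1% higher. MT-RNR2 and MT-RNR1 differed by -3.87 (SE 0.21, adjusted p = 1.06e-14) and -3.68 (SE 0.24, adjusted p = 5.03e-13) as log2 differences, EA.hy926 minus A549. The 4 tRNAs were among the 17, but they entered this test through the counts of A549, where they are high: MT-TF, MT-TV and MT-TL1 stayed below 30 counts in every EA.hy926 library, and MT-TM reached it only with SOANAP-SP. Their being lower was therefore built in by the filter, and their fitted values are a description. They differed by -3.96 for MT-TF to -6.38 for MT-TM. The EA.hy926 CA libraries held 0 to 10 counts of each of the 4, so the fitted values depend on a few reads. The mRNA differences were smaller. 11 of 13 were lower, from -0.62 (adjusted p = 0.0128) for MT-ATP8 to -1.58 (adjusted p = 0.000212) for MT-ND6, MT-ND3 was higher at 0.51 (adjusted p = 0.000293), and MT-ND2 did not pass at 0.36 (adjusted p = 0.0735). MT-ATP6 and MT-ATP8, which encode ATP synthase subunits, lost their calls without CA replicate 1 (adjusted p = 0.0669 and 0.0645) or CA replicate 4 (adjusted p = 0.0765 and 0.0674), where the insert was left out in both lines. Both were also not called when libraries were scaled by their totals (-0.46, adjusted p = 0.0636 for MT-ATP6 and -0.44, adjusted p = 0.0602 for MT-ATP8).

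Per kilobase of gene, MT-RNR2 and MT-RNR1 were the most abundant in A549 cells in CA, at 35353 ± 6802 and 23389 ± 3375 CPM per kilobase (mean ± SD, n = 4). Next were MT-ATP8, MT-ATP6 and MT-CO3, at 9344 ± 2015, 8250.4 ± 1439 and 7974 ± 1096, which lay within each other's spread. MT-ND6 and MT-ND5, at 1165 ± 274 and 804 ± 179.7, were the lowest of the mRNAs. In EA.hy926 cells the order was led by mRNAs: MT-ATP8 at 6889 ± 2428, MT-ATP6 at 6002 ± 2316, MT-CO3 at 5159 ± 1275 and MT-ND2 at 4589.7 ± 1362, again within each other's spread. MT-RNR2 stood at 2747 ± 786 and MT-RNR1 at 2065 ± 811, among the middle mRNAs. MT-ND5 and MT-ND6 were the lowest mRNAs there as well, at 423 ± 212 and 441 ± 238. Reads that fall in the overlap of MT-ATP8 and MT-ATP6 are left out, while the lengths include it.

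**Figure D5:**
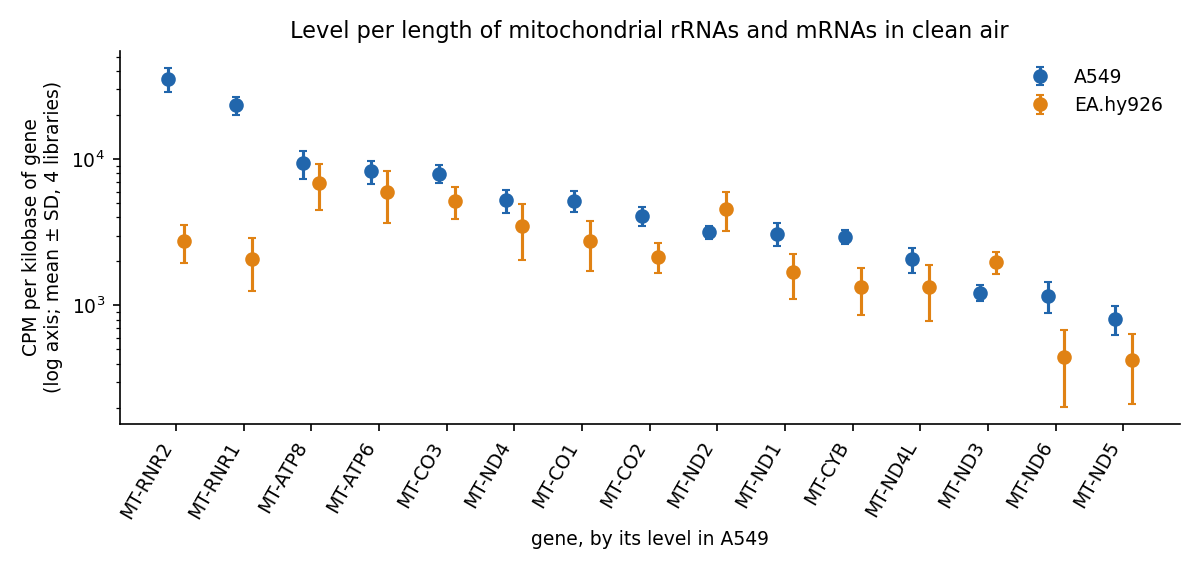
Level in CA of the rRNAs and mRNAs, in CPM per kilobase of gene on a log axis (mean ± SD, 4 libraries), ordered by the level in A549 (blue), with EA.hy926 in orange. MT-RNR2 and MT-RNR1 lead in A549 at 35353 and 23389 and stand at 2747 and 2065 in EA.hy926, while MT-ND2 and MT-ND3 are the genes with the higher mean in EA.hy926.

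In the main fit, which does not pair the 2 lines of 1 insert, no member was found to respond differently between the lines. A fit that paired them called some members for SOANAP-SP, as given below. 0 of 19 were called in the test of the difference of responses (EA.hy926 minus A549) for each aerosol, beside 2.57% of genes higher and 1.21% lower for SP, 7.29% and 5.78% for SOAβPIN-SP, and 9.06% and 6.31% for SOANAP-SP. At an unadjusted p under 0.05 there were 0, 0 and 3 members. For SOANAP-SP the nearest was MT-CO2, at -0.66 (adjusted p = 0.0558). The lines of 1 insert share the exposure, and with the coculture as a block 3 members passed for SOANAP-SP: MT-CO2 at -0.65 (adjusted p = 0.00361), MT-CO3 at -0.46 (adjusted p = 0.018) and MT-ND3 at -0.37 (adjusted p = 0.034), each responding lower in EA.hy926 than in A549 cells. limma-voom, DESeq2 and a filter at 30 CPM called 1, MT-CO2, and 1 member was called without insert CA replicate 4 or insert SOANAP-SP replicate 4. The SOANAP-SP response of MT-RNR1 differed between the lines by 0.19 (SE 0.30), and that of MT-TM by 0.54 (SE 0.93), so sizeable differences in either direction were within the error for the tRNA.

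Nuclear genes that act on mitochondrial RNA were read beside these transcripts. Each count of a list is given beside the shares of all tested genes that were higher and lower. MTERF1, a factor that binds inside the MT-TL1 gene just past the rRNA genes, fell under every aerosol in both lines. In A549 cells it was at 149, 156, 132 and 123 normalized reads in CA, 65.2, 56.8 and 86.8 in SP, 55.7, 48.2, 47.5 and 72.6 in SOAβPIN-SP and 46.1, 50.8, 50.5 and 36.3 in SOANAP-SP. In EA.hy926 cells it was at 154, 135, 152 and 189.8 in CA and 50.0, 50.8, 47.4 and 55.2 in SOANAP-SP. No aerosol library of either line reached its lowest CA library. The log2 fold changes were -1.01 (adjusted p = 0.00191), -1.32 (adjusted p = 1.40e-05) and -1.61 (adjusted p = 1.66e-06) in A549 for SP, SOAβPIN-SP and SOANAP-SP, and -0.81 (adjusted p = 0.000829), -1.08 (adjusted p = 2.26e-05) and -1.64 (adjusted p = 1.17e-07) in EA.hy926. Of the 16 tested genes of mitochondrial DNA transcription and replication, 3 were higher and 5 lower with SOANAP-SP in A549 cells (beside 16.6% and 19.1% of all genes), among them TWNK, the mitochondrial DNA helicase, at -0.76 (adjusted p = 3.78e-06), and POLG2, the accessory subunit of the mitochondrial DNA polymerase, at 0.83 (adjusted p = 0.0326). In EA.hy926 cells 1 of 17 was higher and 4 were lower (beside 14.3% and 15.5% of all genes), among them TEFM, the mitochondrial transcription elongation factor, at -0.73 (adjusted p = 0.00343), and POLG2 at -0.53 (adjusted p = 0.0108).

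Of 32 tested genes of mitochondrial RNA processing and stability, 4 were higher and 11 lower with SOANAP-SP in A549 cells (beside 16.6% and 19.1% of all genes), where the list's median log2 fold change was -0.14 and that of all genes 0.0013. PTCD2, which in mouse is needed for processing of the MT-CYB RNA, was at -0.86 (adjusted p = 0.00191), FASTKD1 at -0.72 (adjusted p = 0.000437), and TRMT10C, a subunit of the RNase P that cuts the 5′ ends of the tRNAs, at -0.69 (adjusted p = 0.000144). TRMT10C also fell with SP and SOAβPIN-SP in A549 cells, at -0.41 (adjusted p = 0.0389) and -0.66 (adjusted p = 0.000285). In EA.hy926 cells 2 of 32 were higher and 4 lower (beside 14.3% and 15.5% of all genes), with PTCD2 at -0.95 (adjusted p = 0.00248), TRMT5, a tRNA methyltransferase, at -0.65 (adjusted p = 0.000104), and PDE12, which removes poly-A tails from mitochondrial RNA, at -0.52 (adjusted p = 0.000449). Of 13 translation factors, 2 were higher and 3 lower in A549 (beside 16.6% and 19.1% of all genes) and 0 and 2 in EA.hy926 cells (beside 14.3% and 15.5% of all genes).

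Of 77 tested nuclear subunits of the respiratory complexes, which assemble with the products of the mitochondrial mRNAs, 35 were higher and 1 lower with SOANAP-SP in A549 cells (beside 16.6% and 19.1% of all genes), with a median log2 fold change of 0.22, among them COX7A2 at 0.57 (adjusted p = 0.00201), NDUFB1 at 0.56 (adjusted p = 0.00155) and UQCRC2 at 0.55 (adjusted p = 4.12e-05). In EA.hy926 cells 0 of 77 were higher and 1 was lower (beside 14.3% and 15.5% of all genes), and whether the lists differ between the lines was not tested. The median of the 13 mitochondrial mRNAs was 0.26 in the same A549 comparison. Of 77 mitoribosome proteins, the partners of the rRNAs, 17 were higher and 5 lower in A549 cells (beside 16.6% and 19.1% of all genes), with a median of 0.16, and 1 higher and 15 lower in EA.hy926 cells (beside 14.3% and 15.5% of all genes), with a median of -0.10. MRPS17 was lower in both, at -0.64 (adjusted p = 0.00133) and -0.63 (adjusted p = 0.00105). Of 6 tested biogenesis regulators in A549 cells 2 were higher (beside 16.6% of all genes), among them the nuclear receptor ESRRA at 0.56 (adjusted p = 0.00279), and 3 lower (beside 19.1%), among them GABPB1, a subunit of a factor that drives nuclear respiratory genes, at -0.59 (adjusted p = 0.00158). GABPB1 was higher in EA.hy926 cells, at 0.29 (adjusted p = 0.0117).

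Copies of mitochondrial genes in the nuclear genome were also counted. Only uniquely mapped reads were counted, so reads that fit a gene and its copy equally well were left out. 3 of 7 such copies in the tables were tested, all on chromosome 1. MTATP6P1 (chr1:633696-634376) aligned to MT-ATP6 over 681 bases at 98.5% identity, MTCO1P12 (chr1:631074-632616) to MT-CO1 over 1543 bases at 98.6%, and MTND2P28 (chr1:629640-630683) to MT-ND2 over 1042 bases at 98.4%. MTATP6P1 was the highest, at 1151 to 2016 CPM in A549 and 614 to 1333 CPM in EA.hy926 libraries. None of the 3 was called against CA in either line. Their log2 fold changes for SOANAP-SP in A549 cells were 0.31, 0.21 and 0.22, next to 0.28, 0.26 and 0.18 for the mitochondrial genes. The values of MT-ATP6, MT-CO1 and MT-ND2 are therefore uncertain by the reads left out and by those assigned to these copies. The untested copies MTCO2P12, MTCO3P12, MTND1P23 and MTRNR2L12 stayed at no more than 1.29 CPM in any library. Reads that fit them and a mitochondrial gene equally well were left out too.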

How the data were processed

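The study's authors sequenced poly-A libraries (NovaSeq, single reads), trimmed them with cutadapt, aligned them with STAR 2.7.3a to GRCh38 with Ensembl genes, removed duplicates by molecular identifier, and counted uniquely mapped reads that lie whole within 1 gene with htseq-count; the submitters' processing notes also name bcl2fastq 2.20.0.422, DESeq2 1.26.0 and, for the build, GRCm38, although the gene identifiers are human. Uniquely mapped reads exclude those that fit a nuclear copy equally well. The deposited raw count tables were used for every result. The deposited normalized tables hold a signal, counts divided by a size factor per library, and served only as an alternative (limma on log2 of the value + 1). EA.hy926 gene names were taken from the A549 table through shared gene identifiers.

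Genes with at least 30 counts in at least 3 libraries of a line were tested with edgeR 4.0.16 (R 4.3.3; TMM, glmQLFit, glmQLFTest) on all 15 libraries of the line, with exposure as the factor. Line differences used all 30 libraries with a term for each line and exposure. P-values were adjusted over all genes tested. Shares and ratios were compared by exact two-sided permutation of log2 values in Python 3.11.15. Alternatives used limma 3.58.1 and DESeq2 1.42.0, other scalings and filters, blocks and leaving out libraries. The fits were tested on simulated data. Coordinates are from GENCODE on GRCh38. The genes named are all MT mRNAs and rRNAs, each tested tRNA and at most 3 genes with the largest change past the test of a list; tRNAs below the filter were named after their values were seen. The members and gene lists were chosen with earlier results of these data known.

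Whether equal replicate numbers pair libraries was checked by correlating deviations from the group means. Only SOAβPIN-SP against SP in A549 cells had all correlations over 0.1 (0.26 to 0.395), although the labels place these libraries in different experiments. No block of replicate numbers therefore entered the main fits. Experiments 38, 42 and 53 join a CA and an aerosol insert of unlike replicate numbers, so this check did not examine those pairs. The main fits ignore them, and experiment entered as a block only in an alternative with limma-voom.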

Additional observations from a re-analysis of the deposited data

Results flagged for a closer look

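Single libraries stood far from the other 3 of their group in 20 of 171 groups of 4 libraries examined by Dixon's test at its 95% critical value; chance alone flags about 1 in 20. The values below are CPM after TMM scaling unless given as a share or ratio. Of the A549 CA libraries, replicate 3 was apart in the mitochondrial mRNA share (5.49% against 4.05 to 4.20%), MT-CO1 (10204 against 7107 to 7475) and MT-CYB (4003 against 3144 to 3210). Of the A549 SOAβPIN-SP libraries, replicate 4 was apart in MT-ND5 (1823 against 1077 to 1186) and MT-ND6 (621 against 409 to 431), and replicate 2 in MT-ND3 (472 against 455 to 457).

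Of the EA.hy926 SOAβPIN-SP libraries, replicate 2 was apart in MT-ND3 (703 against 926 to 962) and replicate 4 in MT-RNR1 (2787 against 1928 to 1975). Of the EA.hy926 SOANAP-SP libraries, replicate 4 was apart in the mitochondrial share (4.74%), the mRNA share (3.68%), the share of the nuclear copies (0.146%) and MT-ND6 per 100 counts of the other mRNAs (0.972 against 0.582 to 0.596). It was also apart in MT-ATP6 (5843), MT-ATP8 (1991), MT-CO1 (4928), MT-ND2 (6458), MT-ND4 (5946), MT-ND4L (437), MT-ND5 (991) and MT-ND6 (365), each above the other 3 libraries. Neither rRNA nor MT-TM was apart in it. Without this library the SOANAP-SP response of MT-RNR1 in EA.hy926 cells was still called.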

How the results depend on the processing

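The 40 calls of single members were fitted again under 965 alternatives: 910 kept direction and call, 53 kept only the direction and 2 changed direction, MT-CO2 (-0.064) and MT-CO3 (-0.088) for SOANAP-SP in A549 cells within experiment 42, a comparison added after seeing the data. 29 calls were never lost. Among these are MT-TM for SOANAP-SP in EA.hy926 cells and the 4 tRNAs in the comparison of the lines in CA. The filter built in the difference of these tRNAs, so nothing is read from their being kept. The cause of the changes was not tested, except that exact tests of 3 against 4 libraries cannot pass, that the CPM filter leaves fewer tRNAs, and that leaving out the filter adds them. A549 calls for SOANAP-SP against CA were 8, with 4 under the CPM filter and 6 to 13 on leaving out 1 library; against SOAβPIN-SP 6, with 3 under the CPM filter; against SP 4, with 7 by DESeq2 and 7 with the compared groups alone, and 1 to 7 on leaving out 1 library. A549 calls against CA for SP were 0, with 1 without the filter and 0 to 1 on leaving out 1 library, and for SOAβPIN-SP 0, with 1 by limma-voom, 1 with the compared groups alone, 2 with experiment as a block, 2 on the authors' normalized values and 0 to 2 on leaving out 1 library. In EA.hy926 cells the 2 calls for SOAβPIN-SP became 0 under the CPM filter, without the filter and with the compared groups alone, 1 with the replicate number as a replicate block or experiment as a block, and 0 to 2 on leaving out 1 library. The 2 for SOANAP-SP became 1 under the CPM filter or the compared groups alone and 1 to 3 on leaving out 1 library; the 0 for SP became 0 to 1; the 0 of SOANAP-SP against SOAβPIN-SP became 1 by DESeq2 and with the compared groups alone. The 0 differences between the lines in the SOANAP-SP response became 1 by limma-voom, DESeq2 and the CPM filter, 3 with the coculture as a replicate block, and 0 to 1 on leaving out 1 insert. The replicate block changed no other count beyond 1.5 times, and took the call of MT-ND3 for SOANAP-SP in A549 cells (adjusted p = 0.0595).

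The mitochondrial share changed sign for mRNAs alone in A549 SOAβPIN-SP (0.109) and EA.hy926 SP (-0.028) and SOANAP-SP (-0.15). On leaving out 1 library the log2 share of EA.hy926 ranged over -0.12 to 0.18 for SP, -0.094 to 0.20 for SOAβPIN-SP and -0.13 to 0.16 for SOANAP-SP, with 0.029, 0.050 and 0.014 as main values, and MT-ND6 to the other mRNAs for SOANAP-SP over -0.28 to 0.012. Ratios that did not overlap lost only the reachable p: rRNA to mRNA in A549 SOAβPIN-SP -0.42 to -0.36 and EA.hy926 SOANAP-SP 0.66 to 0.86, and MT-ND6 in A549 SOAβPIN-SP -0.50 to -0.39 and SOANAP-SP -0.71 to -0.62. With rRNAs left out of the total, the mRNAs and tRNAs whose share of mitochondrial counts did not overlap CA went from 5 to 3 for SP and 10 to 1 for SOAβPIN-SP in A549, and from 1 to 2 for SP in EA.hy926 cells; no share over all genes exists for this measure, and nothing is read from these numbers.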
